A study of Mus musculus with 2 samples.

Results

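The genes of the lipid droplet coat and of stored-fat breakdown were compared between PPARg-deficient and PPARg-floxed mesenchymal stem/progenitor cells. The 10 genes are those of the perilipins Plin1, Plin2, Plin3 and Plin4, the coat protein Cidec, the small droplet protein Hilpda, and the lipolysis genes Pnpla2, Abhd5, Lipe and Mgll. They were chosen by name for their function, with earlier results of these data known. All 10 were found, by transcript structure, among 25707 loci, of which 10650 reached 1 FPKM in at least 1 library with a transcript of at least 300 nt, and 5 of the 10 genes were among these. FPKM is a fragment count divided by transcript length and by the size of the library.

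The cells were bone marrow mesenchymal stem/progenitor cells of 3-month-old CD-1 mice, kept in DMEM with fetal bovine serum. The PPARg-deficient group (genotype label PPAR KO) and the PPARg-floxed group (genotype label PPAR-flox) had 1 RNA sequencing library each. The sources used here do not give the means of deletion, the deleted exons, the number of animals or the passage. With 1 library per group, differences are given by size, with no test, SD or p-value, and the bounds quoted for a transcript are those deposited for its estimate within that library.

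Fat is stored as triglyceride in lipid droplets, whose surface carries perilipins that control access of lipases. Breakdown runs in steps: adipose triglyceride lipase, encoded by Pnpla2 and activated by the Abhd5 product, makes diacylglycerol, hormone-sensitive lipase, encoded by Lipe, makes monoacylglycerol, and monoacylglycerol lipase, encoded by Mgll, frees the last fatty acid. PPARg is the nuclear receptor that drives fat cell formation, and Plin1 and Cidec are known as its direct targets in fat cells.

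Pparg, the targeted gene, was at 1.39 FPKM in deficient cells and 6.86 FPKM in floxed cells, which was 2.58 lower on the log2 scale relative to the median locus. Transcript coverage summed to 1728 megabases in deficient cells and 1383 megabases in floxed cells. As deposited, and with a pseudocount of 1 FPKM, the median of the 10650 loci stood 0.86 above 0 on the log2 scale (1.81-fold higher in deficient cells). Log2 folds below are deficient over floxed on that scale and relative to this median unless they are called as deposited. Of 11 stromal markers 8 passed the filter, with a median log2 fold of -0.37, 1 at least 2-fold higher and 1 lower. Ly6a was at 841 FPKM in deficient cells and 530 FPKM in floxed cells (log2 fold -0.19), and Col1a2 at 255 and 205 FPKM (-0.54) in the same order. Cxcl12, the chemokine gene of marrow stroma, was the higher one, at 318 FPKM in deficient cells and 60.4 FPKM in floxed cells (1.52). Nt5e was the lower one, at 1.01 FPKM in deficient cells and 1.86 FPKM in floxed cells (-1.37), both close to the 1 FPKM filter. Col1a1 was at 191 and 173 FPKM (-0.72), Vcam1 at 60.2 and 59.9 FPKM (-0.85) and Pdgfrb at 74.0 and 21.8 FPKM (0.86) in the same order. Eng, Thy1 and Lepr, which also mark such cells, stayed under 1 FPKM in both. Of 9 matched macrophage markers 5, among them Ptprc and Adgre1, were listed at 0 in both libraries. The macrophage markers summed to 14.9 FPKM in deficient cells and 6.11 FPKM in floxed cells, mostly from Cd14. The endothelial markers summed to 0.124 and 0.021 FPKM, and the skeletal muscle markers to 2.52 and 1.17 FPKM, mostly from Mylpf, in the same order. The part of other cells in the results below was not tested.

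Of the 10 genes, Plin2, Hilpda, Plin3 and Abhd5 carried nearly all of the signal, and the coat and lipase genes typical of fat cells were at or near 0. Plin2 was the most abundant in each library. Hilpda, Plin3 and Abhd5 were each higher in deficient cells, both as deposited and relative to the median locus, while Plin2 was nearly level as deposited and below the median locus. Relative to the median, none of the 5 genes that passed the filter was 2-fold higher or lower, where the background was 10.3% of all loci called higher and 11.6% called lower. With the values as deposited, 3 of the 5 were called higher and 0 lower, against 42.0% and 4.57% of all loci. All 5 reached 1 FPKM in both libraries, so none of them passed through 1 library alone.

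**Figure D1:**
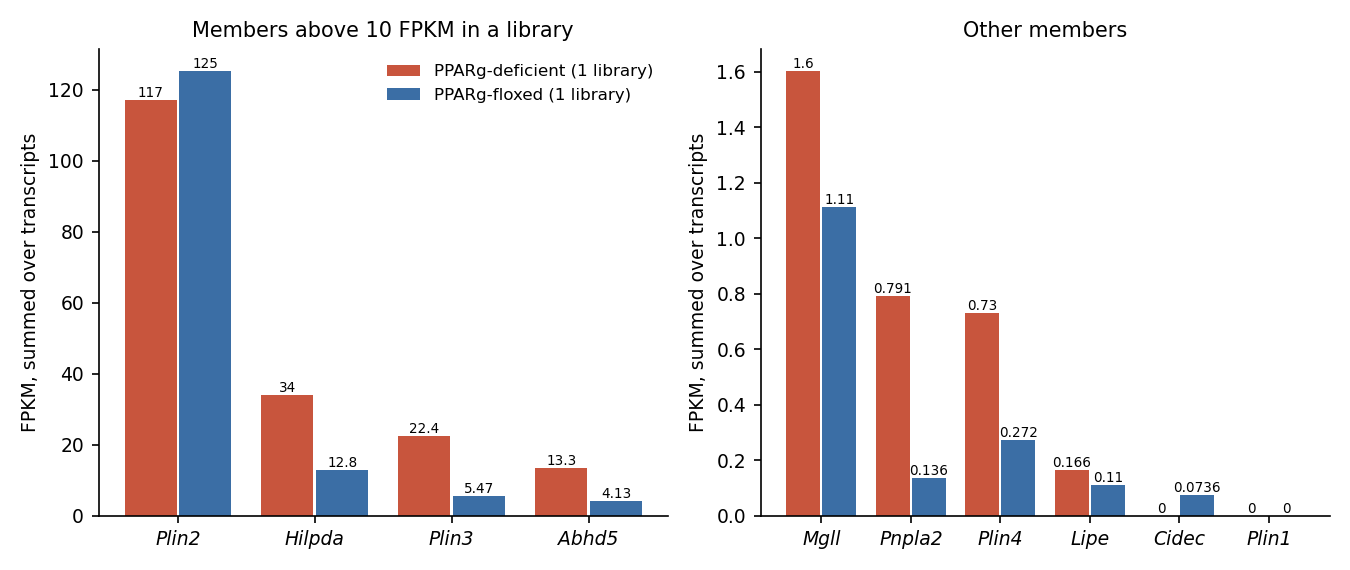
FPKM of each gene, summed over its transcripts, in the PPARg-deficient library (red) and the PPARg-floxed library (blue), with 1 library per group and separate linear axes for abundant and scarce genes. Plin2 stands at 117 and 125 FPKM, while Hilpda, Plin3 and Abhd5 are higher in deficient cells.

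Plin2 encodes perilipin 2, a droplet coat protein found also in cells other than fat cells. It lay on chromosome 4 from 86302469 to 86315963 on the minus strand (mm9). It was at 117 FPKM in deficient cells and 125 FPKM in floxed cells, a log2 fold of -0.09 as deposited and -0.95 relative to the median locus. With the pseudocount of 1 FPKM that is just short of 2-fold lower, and 12.3% of the loci had a lower fold. Its rank among the loci that passed the filter was high in both libraries, at percentile 91.0 in deficient and 94.3 in floxed cells.

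The Plin2 sum hid a difference between its 3 deposited transcripts, which share 7 exons and differ in the first. The transcript with the most upstream start, whose intron chain is that of the annotated Plin2-201, was at 102 FPKM (deposited bounds 96.4 to 107) in deficient cells and 97.9 FPKM (92.3 to 103) in floxed cells. These bounds overlap. The second start lies 562 nt downstream, with a first exon of 52 nt. Its transcript was at 15.4 FPKM (12.6 to 18.1) in deficient cells, and in floxed cells its upper bound was 0.136 FPKM.

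The third start lies 1192 nt downstream of the first, with a first exon of 22 nt. Its transcript had an upper bound of 0.135 FPKM in deficient cells and was at 27.2 FPKM (23.6 to 30.9) in floxed cells. Each library thus had a different alternative Plin2 transcript with an estimate above 1 FPKM, which made up 13.1% of Plin2 FPKM in deficient cells and 21.8% in floxed cells. The first intron of the second-start transcript, of 740 nt, has the same length as that of the annotated Plin2-207, whereas the third start's first intron, of 140 nt, matched no annotated Plin2 first intron by length. Such an exchange, with 1 transcript of at least 5 FPKM in either library whose upper bound is under 1 FPKM in the other, and another the reverse, was found in 25 of 2887 loci with at least 2 transcripts and 10 FPKM (0.866%). Among the 553 such loci at 50 FPKM or more in both libraries it was found in 11 (1.99%). The rule was not planned beforehand, and Plin2 is among the loci that meet it. These shares are therefore descriptions and no independent measure of how rare the Plin2 pattern is. The transcripts differ only in first exons of 22 to 115 nt within 1794 to 1887 nt, and how the estimates divide shared reads between them was not tested.

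**Figure D2:**
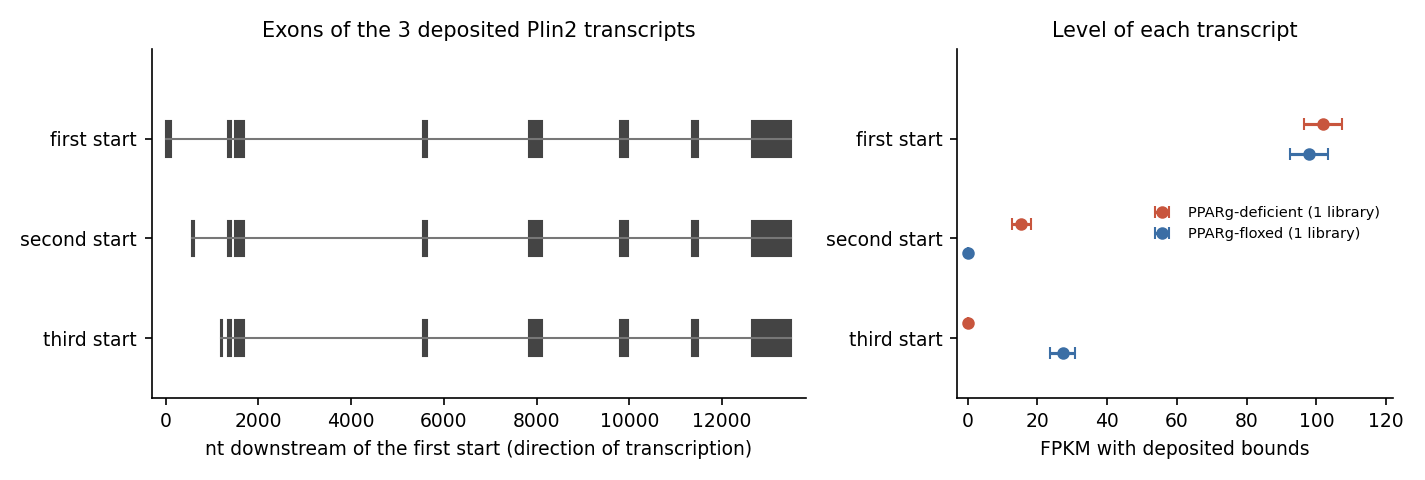
Left, exons (blocks) of the 3 Plin2 transcripts by distance in nt from the most upstream start. Right, FPKM of each with its deposited bounds in the PPARg-deficient (red) and PPARg-floxed (blue) library, where the second start is at 15.4 FPKM in deficient cells against an upper bound of 0.136 FPKM in floxed cells, and the third has an upper bound of 0.135 FPKM in deficient cells against 27.2 FPKM in floxed cells.

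Plin3 encodes perilipin 3 (TIP47), a cytosolic protein that moves onto newly forming droplets. It lay on chromosome 17 from 56418382 to 56429937 on the minus strand (mm9). It was at 22.4 FPKM in deficient cells and 5.47 FPKM in floxed cells, a log2 fold of 1.85 as deposited and 0.996 relative to the median. This was the highest fold of the 5 genes, just under the 2-fold threshold. It lay at percentile 89.6 of the folds of the loci that passed the filter. Its main transcript, with the intron chain of Plin3-201, was at 21.7 FPKM (19.5 to 23.9) in deficient cells and 4.36 FPKM (3.27 to 5.45) in floxed cells, so the bounds are well apart. A second transcript had ends a few bases away and a chain that matched no annotated transcript. It was at 0.68 FPKM (0.15 to 1.22) and 1.11 FPKM (0.44 to 1.78) in deficient and floxed cells, and these bounds overlap.

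The remaining coat genes were scarce. Plin4, a long perilipin found on droplets of fat and muscle cells, was at 0.73 FPKM in deficient cells (0.50 to 0.96 for its main transcript) and 0.27 FPKM in floxed cells (0.13 to 0.42). These bounds did not overlap, but both values are under the 1 FPKM filter, and no fold is called. Plin1, the main droplet coat protein of fat cells, was listed at 0 in both libraries. Cidec, which promotes droplet fusion in fat cells, was listed at 0 in deficient cells and was at 0.07 FPKM (0 to 0.22) in floxed cells. Plin5, a perilipin of oxidative tissues outside the 10 genes, was listed at 0 in both.

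Within each library, ratios between genes do not depend on how the library was scaled. The ratio of Plin3 to Plin2 was 0.191 in deficient cells and 0.0437 in floxed cells, 4.37 times as high. Of the summed perilipin FPKM (140 in deficient and 131 in floxed cells), Plin2 held 83.5% in deficient cells and 95.6% in floxed cells. Plin3 held 16.0% in deficient cells and 4.18% in floxed cells. The coat genes were thus Plin2 with a minor part of Plin3 in both libraries, and the Plin3 part was larger in the deficient one.

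**Figure D3:**
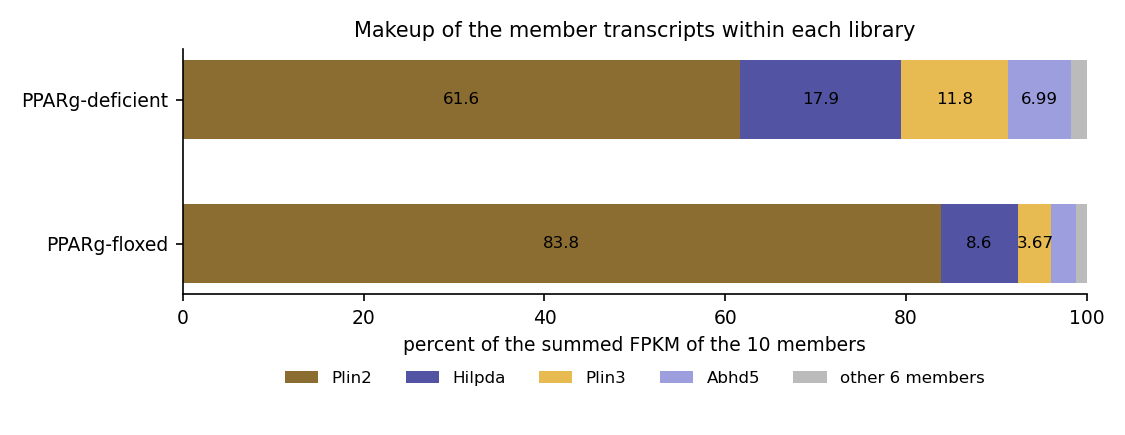
Percent of the summed FPKM of the 10 genes held by Plin2, Hilpda, Plin3, Abhd5 and the other 6 genes in the PPARg-deficient library (upper bar) and the PPARg-floxed library (lower bar). Plin2 holds 61.6% of the deficient and 83.8% of the floxed sum.

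Hilpda encodes a short hypoxia-inducible droplet protein that inhibits the Pnpla2 lipase. It lay on chromosome 6 from 29222488 to 29225449 on the plus strand (mm9). It was at 34.0 FPKM in deficient cells and 12.8 FPKM in floxed cells, a log2 fold of 1.34 as deposited and 0.48 relative to the median. All of it came from 1 of 2 transcripts, at 34.0 FPKM (29.6 to 38.3) in deficient and 12.8 FPKM (10.1 to 15.5) in floxed cells, with bounds that do not overlap. The transcript with the more upstream start had upper bounds of 0.298 and 0.307 FPKM in the same order. Relative to Plin2, Hilpda was at a ratio of 0.290 in deficient cells and 0.103 in floxed cells, 2.82 times as high.

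Among the lipolysis genes, Abhd5 stood apart from the lipases by its level. Abhd5, which encodes the co-activator CGI-58, lay on chromosome 9 from 122260734 to 122290641 on the plus strand (mm9). It was at 13.3 FPKM in deficient cells and 4.13 FPKM in floxed cells, a log2 fold of 1.48 as deposited and 0.62 relative to the median. Its main transcript, with the chain of Abhd5-204, was at 11.4 FPKM (10.1 to 12.8) in deficient cells and 2.96 FPKM (1.86 to 4.05) in floxed cells. A second transcript with a start further downstream was at 1.86 FPKM (1.13 to 2.59) and 0.59 FPKM (0.17 to 1.01) in the same order, again without overlap. It made up 14.0% of Abhd5 FPKM in deficient and 14.2% in floxed cells, so the parts held by this start were close.

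Pnpla2, which encodes the lipase that starts triglyceride breakdown, lay on chromosome 7 from 148641087 to 148646642 on the plus strand (mm9). It was at 0.79 FPKM in deficient cells (0.40 to 1.18 for the Pnpla2-203 transcript) and 0.14 FPKM in floxed cells (0 to 0.29). The bounds did not overlap, yet the values rest on 3.15 and 0.542 kilobases of summed coverage in deficient and floxed cells, and they are under the filter. The ratio of Abhd5 to Pnpla2 was 16.8 in deficient cells and 30.3 in floxed cells, so FPKM of the co-activator gene exceeded that of the lipase gene in each. Because the floxed Pnpla2 value has a lower bound of 0, these ratios are not compared between the libraries. Lipe was at 0.17 FPKM in deficient cells and 0.11 FPKM in floxed cells, each from a different transcript with a lower bound of 0.

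Mgll lay on chromosome 6 from 88674406 to 88778354 on the plus strand (mm9) with 6 transcripts. It was at 1.60 FPKM in deficient cells and 1.11 FPKM in floxed cells. Its log2 fold was 0.30 as deposited and -0.56 relative to the median, so its direction depends on the scaling. The bounds of its main transcript, the chain of Mgll-204, overlap at 1.12 to 2.03 FPKM in deficient and 0.73 to 1.49 FPKM in floxed cells. Abhd5 exceeded Mgll at a ratio of 8.31 in deficient and 3.71 in floxed cells.

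**Figure D4:**
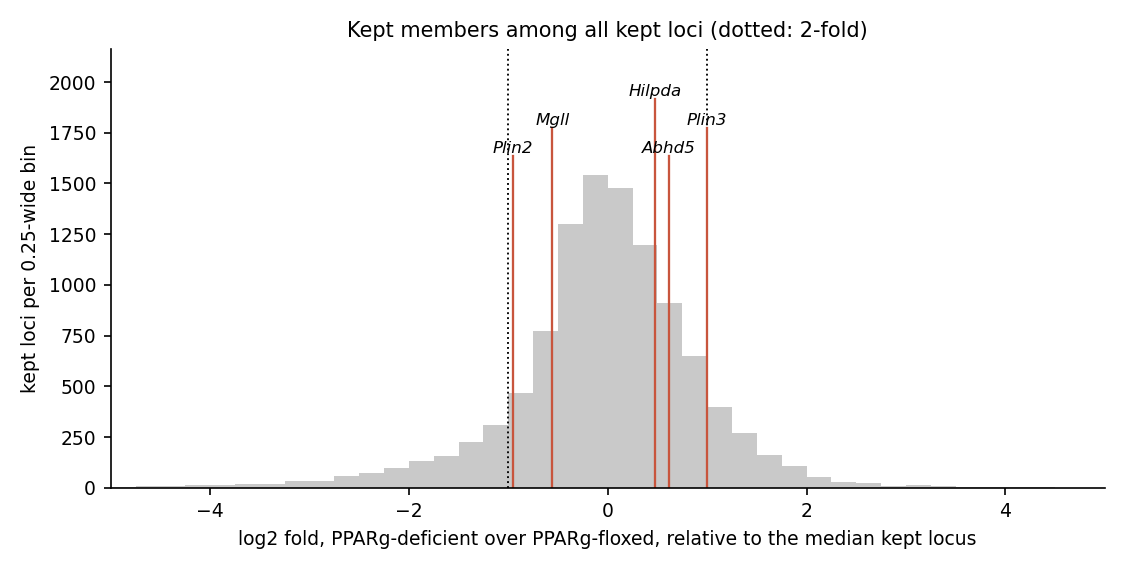
Number of loci (grey bars) by log2 fold, PPARg-deficient over PPARg-floxed, relative to the median of the 10650 loci that passed the filter, with the 5 genes that passed it as red lines and 2-fold as dotted lines. Plin2 at -0.95 and Plin3 at 0.996 sit just inside the dotted lines on opposite sides.

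Ordered by FPKM, which is per transcript length, the genes ran Plin2, Hilpda, Plin3, Abhd5 and Mgll in both libraries. Below Mgll, Pnpla2 and Plin4 followed in deficient cells and Plin4 and Pnpla2 in floxed cells, and the bounds of these 2 genes overlap within each. Lipe, Plin1 and Cidec closed the order in both. Ranks were taken among the 10650 loci that passed the filter, a set that depends on the deposited scaling. Plin3 was at percentile 72.8 in deficient and 62.8 in floxed cells. Abhd5 was at 64.5 in deficient and 57.5 in floxed cells, and Hilpda at 78.8 and 75.8 in the same order. Mgll was lower in rank, at 15.6 in deficient and 25.3 in floxed cells. Of the ranked loci, 10202 reached 1 FPKM in deficient and 8218 in floxed cells. A gene near 1 FPKM, as Mgll is, therefore ranks higher in floxed cells at the same FPKM.

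Promoter windows are shown for the 3 genes of this set whose start regions hold a searched motif and whose level reached 10 FPKM in a library. The windows run from 250 bases before to 50 bases after the start site, are from RefSeq on GRCm38.p6, a later build than that of the files, and all 10 genes matched, with 14 windows in all. Each is printed on the strand of its gene, in lower case, with motif matches in capitals. The motifs were AGGTCA, the nuclear receptor half-site, AGGTCANAGGTCA, the direct repeat that PPARg with RXR prefers, and ACGTG, the core of the hypoxia response element, each on both strands.

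Plin2, chr4:86670010-86670309, minus strand: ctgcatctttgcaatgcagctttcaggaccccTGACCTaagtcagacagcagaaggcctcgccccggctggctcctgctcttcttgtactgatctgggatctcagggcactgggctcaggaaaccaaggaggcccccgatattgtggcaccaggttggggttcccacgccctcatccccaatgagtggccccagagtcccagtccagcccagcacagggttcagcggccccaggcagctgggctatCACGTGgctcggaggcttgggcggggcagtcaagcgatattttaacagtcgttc
Hilpda, chr6:29272376-29272675, plus strand: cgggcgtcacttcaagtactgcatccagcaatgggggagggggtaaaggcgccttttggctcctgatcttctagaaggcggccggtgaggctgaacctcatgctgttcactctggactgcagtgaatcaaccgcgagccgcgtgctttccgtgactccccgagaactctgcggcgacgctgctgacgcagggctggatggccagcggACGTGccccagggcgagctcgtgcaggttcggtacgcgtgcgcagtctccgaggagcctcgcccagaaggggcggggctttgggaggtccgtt
Abhd5, chr9:122351366-122351665, plus strand: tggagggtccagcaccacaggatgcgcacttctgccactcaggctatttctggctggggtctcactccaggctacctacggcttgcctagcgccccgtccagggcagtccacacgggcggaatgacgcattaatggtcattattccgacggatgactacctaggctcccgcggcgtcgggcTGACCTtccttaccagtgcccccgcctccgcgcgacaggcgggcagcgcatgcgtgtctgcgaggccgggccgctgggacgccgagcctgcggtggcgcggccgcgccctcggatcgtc

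The half-site was on the opposite strand of the Plin2 window at -218 and of the Abhd5 window at -69, counted from the start site to the leftmost base. It was in 2 of the 14 windows, against 16.3% of 32851 promoter windows of the same length. The exact direct repeat was in 0 of the 14 and in 0.0396% of all windows. The hypoxia core was in the Hilpda window at -43, where the start is that of the annotated Hilpda-201, whose intron of 1839 nt is that of the transcript that held the Hilpda FPKM. In the Plin2 window the core occurs on both strands at -4 and -3 as 1 palindrome, CACGTG. These are matches by sequence alone, and which factor binds them was not tested. It was in 5 of the 14 windows, those of Plin2, Lipe and Mgll included, against 19.6% of all windows. The second and the third Plin2 start lie outside the printed window.

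Other genes of the droplet that passed the filter were mostly within 2-fold of the median locus, with a list median below it. The value in brackets after each pair of levels below is the log2 fold relative to that locus. In this list 1 gene, and in the lipolysis, synthesis and hypoxia lists below 4, 3 and 4 genes, passed the filter through the deficient value alone, as did 2432 of all 10650 loci, so these counts and medians are descriptions. Of 17 other droplet proteins and droplet formation genes 14 were matched and 10 passed the filter, with a median log2 fold of -0.39, 1 at least 2-fold higher and 0 lower (3 and 0 as deposited). The median of the 5 genes described above was 0.48. Aup1, a protein of droplets and of protein degradation at the endoplasmic reticulum, was at 13.0 FPKM in deficient cells and 1.52 FPKM in floxed cells (1.62). Pcyt1a, which makes phosphatidylcholine for growing droplets, was at 13.8 FPKM in deficient and 4.27 FPKM in floxed cells (0.64). Rab8a, a small GTPase of membrane traffic, was at 98.1 and 85.5 FPKM (-0.66), and Bscl2, which encodes the droplet assembly protein seipin, was at 8.41 and 6.24 FPKM (-0.48), in deficient and floxed cells.

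Of 32 lipolysis regulators and other lipases 29 were matched and 15 passed, with a median of -0.09, 1 higher and 2 lower (5 and 0 as deposited). The fatty acid carrier Fabp5 was at 220 FPKM in deficient cells and 15.2 FPKM in floxed cells (2.92), although its processed pseudogenes could share reads with it. Its relative Fabp4 was at 12.7 FPKM in deficient and 17.6 FPKM in floxed cells (-1.30). Ddhd2, a triglyceride lipase of neurons, was at 8.23 FPKM in deficient and 9.62 FPKM in floxed cells (-1.06). Daglb, a diacylglycerol lipase, was at 5.24 and 1.53 FPKM (0.45) in the same order. The upstream receptor gene Adrb3 and the fat cell phosphodiesterase gene Pde3b stayed under 1 FPKM in both libraries.

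Of 21 triglyceride and cholesteryl ester synthesis genes 20 were matched and 15 passed, with a median of -0.21, 1 higher and 2 lower (3 and 0 as deposited). The acyl-CoA synthetase gene Acsl5 was at 14.8 FPKM in deficient cells and 0.82 FPKM in floxed cells (2.26), so only the deficient value brought it past the filter. Soat1, which esterifies cholesterol for storage in droplets, was at 23.8 FPKM in deficient and 43.2 FPKM in floxed cells (-1.69). Acsl1, another acyl-CoA synthetase gene, was at 4.23 and 5.06 FPKM (-1.07), and Acsl4 at 12.9 and 10.7 FPKM (-0.60), in the same order. Of 10 genes of droplet breakdown by autophagy 9 passed, with a median of 0.30, 1 higher and 2 lower (5 and 1 as deposited). Sqstm1, the cargo receptor p62 gene, was at 27.2 FPKM in deficient and 3.99 FPKM in floxed cells (1.64). Map1lc3b, which encodes the autophagosome protein LC3B, was at 367 FPKM in deficient and 1090.3 FPKM in floxed cells (-2.43). The chaperone gene Hspa8, which has processed pseudogenes, was at 972 and 1650 FPKM (-1.62), and Lamp2, a lysosomal membrane protein gene, at 411 and 403 FPKM (-0.83), in the same order.

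Hilpda was set beside 20 other hypoxia-inducible genes, of which 15 passed, with a median of 0.17, 3 higher and 0 lower (8 and 0 as deposited). Adm, the adrenomedullin gene, was at 41.6 FPKM in deficient cells and 0.37 FPKM in floxed cells (4.09). Ndrg1 was at 6.48 FPKM in deficient and 0.58 FPKM in floxed cells (1.39), and for both genes only the deficient value passed the filter. P4ha1, a collagen prolyl hydroxylase gene, was at 27.3 and 4.97 FPKM (1.38), and Ldha, a glycolytic gene with processed pseudogenes, at 1082 and 397 FPKM (0.59), in the same order. Hilpda, at 0.48, lay between Ldha and the list median.

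Plin2 was set beside 20 PPAR-responsive lipid genes, of which 19 were matched and 11 passed, with a median of -0.99, 0 higher and 5 lower (1 and 3 as deposited). Lpl, which encodes lipoprotein lipase, was at 2.78 FPKM in deficient cells and 176 FPKM in floxed cells (-6.41). Adipoq, the adiponectin gene, was at 0.10 FPKM in deficient and 9.87 FPKM in floxed cells (-4.16). Of the 5 lower calls, Adipoq and Angptl4 (0.44 FPKM in deficient and 1.95 FPKM in floxed cells) passed the filter through the floxed value, so they had to be lower and add no support to this count or median. With Lpl, they are also the 3 lower calls as deposited, where the list median was -0.13. The deposited bounds of the main transcripts of Fabp4 and Acsl1 overlap between the libraries. Fabp4 and Acsl1, given above, are also in this list. Plin2 was at -0.95, while Plin1 and Cidec were at or near 0 in both libraries. Of 9 matched fat cell markers, Fabp4 and Adipoq passed 1 FPKM, and Lep, Plin1 and Retn were listed at 0 in both libraries. In whole cultures like these, fewer cells of a type and less RNA per cell cannot be told apart.

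**Figure D5:**
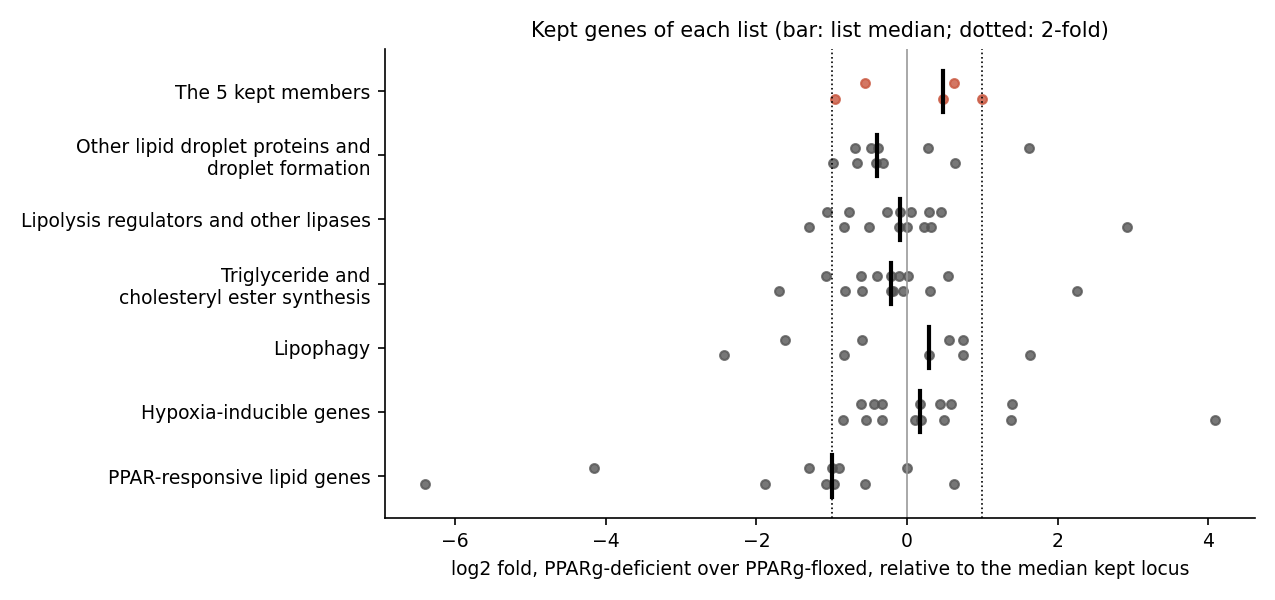
Log2 fold, PPARg-deficient over PPARg-floxed and relative to the median locus, of each gene that passed the filter in 7 lists, with the list median as a black bar and 2-fold as dotted lines. The 5 droplet genes spread from -0.95 to 0.996, and the PPAR-responsive genes have the lowest median, -0.99.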

How the data were processed

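RNA of 2 libraries, 1 PPARg-deficient and 1 PPARg-floxed, was sequenced. The authors deposited FPKM per transcript, with lower and upper bounds and coverage, in Cufflinks format, per the file headers. TopHat2 2.0.5, Cufflinks 2.0.2, Cuffdiff 2.0.2 and mm9 are named in the submitters' processing notes, without role or order. The sources used here do not give the annotation, filters, strand handling or read counts, so the fragments behind a value are unknown.

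The files hold 45543 transcripts without symbols. A locus was named where the ordered intron and internal exon lengths of its transcripts matched 1 gene of GENCODE M21 (GRCm38) on the same chromosome and strand, by a chain of at least 2 introns (17708 loci), a run of 3 lengths (350) or a single intron with a terminal exon (965). On another chromosome, 0 of 37034 chains matched. No coordinate was converted. FPKM was summed per locus, and log2 folds used a pseudocount of 1 FPKM, which understates changes of low genes. It also lowers the median and so shifts the relative folds of abundant genes. Without it, the median as deposited was 1.17 on the log2 scale, over kept loci above 0 in both libraries. The deficient to floxed ratio of Plin2 was then 0.417 times the median ratio, and that of Hilpda 1.18 times. Loci of at least 1 FPKM in a library and 300 nt were kept, and a call was 2-fold by size. The genes and lists were chosen with earlier results of these data known. Named beside the 10 genes are per list the 4 genes farthest from the median that reached 5 FPKM, and up to 4 highest markers, some left out for brevity. Genes named outside this rule after their values were seen are Plin5, Adrb3, Pde3b, Eng, Thy1, Lepr, Ptprc, Adgre1, Lep, Retn, Pdgfrb, Nt5e, Vcam1 and Angptl4. Python 3.11.15 with numpy 2.4.6 and matplotlib 3.10.9 was used.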

Additional observations from a re-analysis of the deposited data

How the results depend on the processing

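Across 11 settings each (10 for Mgll), Plin3, Hilpda and Abhd5 kept a positive log2 fold, from 0.78 to 1.85, from 0.26 to 1.34 and from 0.41 to 1.48, and Plin2 kept a negative one, from -1.23 to -0.09. Mgll turned positive as deposited (0.30), with TPM (0.27) and with no filter (0.25). No setting shows the spread between cultures.

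Relative to the median, 0 of the 5 genes were 2-fold higher and 0 lower, against 10.3% and 11.6% of all loci. As deposited and with TPM, 3 of the 5 were higher, and with no filter 3 of the 10 genes. Of all loci, 4478, 4426 and 4166 were higher in the same order. The 4478 are 42.0% of the 10650 loci compared, a number that differs where a setting changes the filter, length limit or transcript. The same 10650 loci were compared with TPM, at 1.5-fold, with a pseudocount of 0.1 FPKM and with upper-quartile scaling. With no filter more loci were compared, and with a filter of 5 FPKM fewer, without Mgll. The counts of those settings are therefore not shares of the 5 genes or of the 10650 loci. At 1.5-fold, 2 were higher and 1 lower, where 2331 and 2172 of all loci were. With the most abundant transcript, all transcript lengths, or 1 transcript common to both libraries (added after seeing the data), 1, Plin3, was higher. Of all loci, 1132, 1243 and 1332 were higher in the same order. With a pseudocount of 0.1 FPKM, a filter of 5 FPKM or upper-quartile scaling, 1, Plin2, was lower. Of all loci, 1710, 859 and 1268 were lower in the same order. Plin3 and Plin2 lie within 0.05 of the threshold on the log2 scale.

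Of all loci, 1093 were higher and 1240 lower relative to the median, 46.8% of the calls higher. As deposited 4478 were higher and 487 lower, 90.2% higher. With TPM 4426 were higher and 584 lower, and with no filter 4166 and 519. At 1.5-fold 2331 were higher and 2172 lower, and at 4-fold 159 and 413. A pseudocount of 0.1 FPKM gave 1695 higher, a filter of 5 FPKM 724 higher, and a pseudocount of 5 FPKM 423 lower. No paired analysis was possible because each group has 1 library, and no replicate could be left out.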
